A study of Mus musculus with 2 samples.

Results

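The genes described here are 9 markers of monocytes and macrophages, *Lyz1*, *Lyz2*, *Csf1r*, *Cd14*, *Ccr2*, *Fcgr3*, *Itgam*, *Cx3cr1* and *Mpeg1*, read in long-term hematopoietic stem cells (LT-HSCs) of old mice. They were chosen by name and are covered by 16 of the 55681 distinct probes of the array and make up 9 of the 22555 genes that could be named on it. LT-HSCs were sorted from 2-year-old C57BL/6J mice of 2 genotypes and profiled on single-colour Agilent arrays, with 1 array per genotype, both on the same slide. The p38αΔ/Δ mice carried CAG-CreERT2 and floxed p38α alleles and were injected with tamoxifen (TAM) at 50 to 60 weeks of age, 1 year before analysis. The controls, called p38α+/+, were of the same age, also carried the floxed alleles and also received TAM, but lacked CreERT2. The CAG promoter is active in nearly all tissues, so the deletion was not restricted to blood cells. The number of mice behind each array is not given in the sources used here. The labels give the gate as CD150+CD48-Flt3-CD34- LSK, and the methods add CD41-. The lineage antibodies of the sort included Mac-1, which binds the product of *Itgam*, and Gr-1, so cells with these proteins on their surface were meant to be left out.

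Monocytes arise in the bone marrow from progenitors downstream of the stem cell and become macrophages or related phagocytes in the tissues. Most of the 9 genes are switched on along that path under the factors PU.1 and C/EBP. *Csf1r* encodes the receptor for the growth factors on which the lineage depends, *Ccr2* and *Cx3cr1* encode the chemokine receptors that mark classical and patrolling monocytes, and the others encode recognition receptors and microbicidal proteins. LT-HSCs are defined by the absence of mature lineage proteins, although low levels of myeloid transcripts are known in them.

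A value below is the log2 of a probe's background-subtracted signal minus the 75th percentile of its array, and a difference is that of the array labelled p38αΔ/Δ minus that of the p38α+/+ array. A probe counted as measured on an array where the scanner software called it well above background, which held for 67.9% of probes on the p38α+/+ array and 69.0% on the other. Where a probe was measured on 1 array only, the unmeasured side took the lowest level at which any probe of that array was measured. That level was −4.65 for p38α+/+ and −4.72 for the array labelled p38αΔ/Δ. The fold is then a bound, written as "at least". An unmeasured side whose own level was higher kept that level, and its fold is not a bound. With 1 array per genotype there is no replicate, no p-value is given, and the error printed after a difference is the scanner software's own error of the spots, which leaves out the spread between mice. Each member probe was spotted once. Probes with 3 or more spots gave a second measure of spot error: the SD of their difference between the arrays was 0.36 (log2, 39 probes) where the mean signal was under −3, 0.25 (35 probes) from −3 to −2, 0.15 (79 probes) from −2 to 0 and 0.07 (123 probes) above 0. Over all 17191 named genes measured on at least 1 array the median difference was −0.03 and the quartiles were −0.38 and 0.33. The normexp background correction quoted below adds 50 to every signal. This draws the differences of dim probes toward 0, so that setting cannot decide whether they pass 2-fold.

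*Mapk14*, which encodes p38α, was not lower on the array labelled p38αΔ/Δ. Its probes read 2.08 and 2.34 on the p38α+/+ array and 2.03 and 2.31 on the other, differences of −0.05 ± 0.20 and −0.04 ± 0.20, and whether either probe lies in the deleted exons is not given in the sources used here. The direction of every difference below rests on that label. Of genes known from stem cells, *Hlf*, a factor of stem cell identity, had levels of 4.72 and 3.94, *Kit*, the receptor selected for in the gate, of 5.66 and 5.57, and *Slamf1*, which encodes CD150, of −1.26 and −2.08. Genes whose products the gate selects against were measured too, with *Cd34* at 2.81 and 2.67, *Flt3* at −2.31 and −1.95, *Itga2b*, which encodes CD41, at 0.61 and 0.24, and *Cd48* at −2.06 and −0.69.

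Of the 16 member probes, 10 were measured on both arrays, 3 on the p38α+/+ array only, 0 on the other array only and 3 on neither. A change of 2-fold or more was read downward in 3 of the 13 measured at all and upward in 0. Over all probes measured on at least 1 array, 7.39% went down on the array labelled p38αΔ/Δ by this much and 6.33% went up, and among dim probes with a mean signal between −4 and −1, where all 3 lie, these shares were 12.2% and 10.5%. The 3 probes belong to 2 genes, *Csf1r* and *Cx3cr1*, and 2 of them overlap in sequence. The 10 probes measured on both arrays ran from −0.96 to 0.92 with a median of 0.32, of which 6 were higher and 4 lower on the array labelled p38αΔ/Δ. In RNA pooled from sorted cells, fewer cells that hold a transcript and less of that transcript per cell cannot be told apart.

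**Figure D1:**
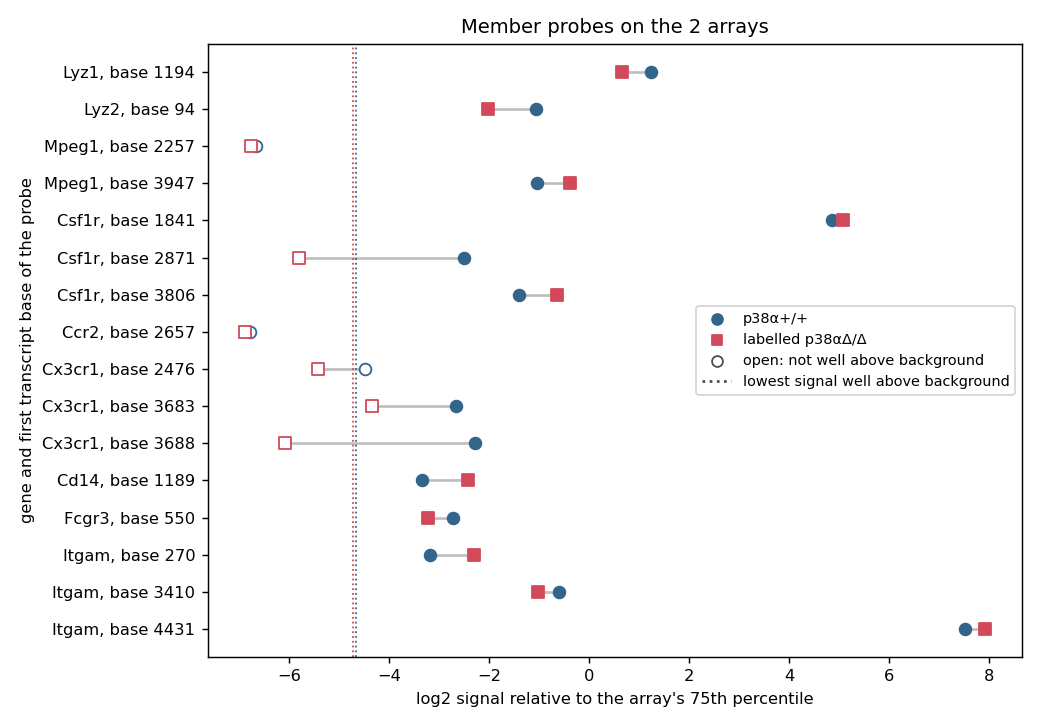
Log2 signal of each of the 16 member probes relative to the array's 75th percentile (x axis), by gene and by the transcript base at which the probe starts (y axis). Circles are the p38α+/+ array and squares the array labelled p38αΔ/Δ, 1 array each; open symbols were not well above background, dotted lines mark the lowest signal that was, and the 3 probes with a filled circle and an open square are those of *Csf1r* and *Cx3cr1*.

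The 2 lysozyme genes were both lower on the array labelled p38αΔ/Δ, by 1.49-fold and 1.94-fold. *Lyz1* and *Lyz2* encode secreted lysozymes that cut the peptidoglycan of bacterial walls. *Lyz2* is the form of monocytes, macrophages and neutrophils, and *Lyz1* that of Paneth cells of the gut. They lie side by side on chromosome 10 and arose by duplication. Their upstream sequences show how close they are. They are printed 5′ to 3′ on the strand of the genes, from 250 bases before the start up to the start, from RefSeq on GRCm38.p6, at chr10:117292869-117293118 for *Lyz1* and chr10:117282273-117282522 for *Lyz2*. Capitals mark ACTTCCT, which reads AGGAAGT on the opposite strand, the letters of a site of the ETS type to which PU.1 belongs.
Lyz1 upstream: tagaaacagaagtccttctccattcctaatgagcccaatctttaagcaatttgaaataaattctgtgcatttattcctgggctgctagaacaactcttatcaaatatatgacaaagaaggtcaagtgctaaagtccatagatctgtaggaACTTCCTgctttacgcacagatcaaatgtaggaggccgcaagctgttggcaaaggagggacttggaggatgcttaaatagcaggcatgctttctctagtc
Lyz2 upstream: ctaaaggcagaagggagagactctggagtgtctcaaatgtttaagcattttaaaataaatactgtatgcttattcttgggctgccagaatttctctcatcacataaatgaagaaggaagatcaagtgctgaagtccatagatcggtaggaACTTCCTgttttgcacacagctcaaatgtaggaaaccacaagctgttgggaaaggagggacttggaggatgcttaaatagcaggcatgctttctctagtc
Aligned, the upstream stretches were identical at 200 of 252 columns (79.4%), and the first 50 transcribed bases at 49 of 50. The capitals begin 100 bases before the start in both genes. This motif was searched on both strands and was chosen after these promoters had been seen. It occurs in 3072 of 32851 RefSeq promoter windows of this length (9.35%), and among the 7 member genes in that table, in *Lyz1* and *Lyz2* but not in *Ccr2*, *Cx3cr1*, *Fcgr3*, *Itgam* or *Mpeg1*. The longer form GAGGAAGT occurs in 3.20% of windows and in none of the 7. A match is a run of letters and not a measured binding site.

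The *Lyz1* probe, from base 1194 of its transcript (mm9 chr10:116724862-116724921), had a signal of 336 on the p38α+/+ array and 181 on the other. Its log2 levels were 1.23 and 0.66, a difference of −0.57 ± 0.20. The *Lyz2* probe starts at base 94 (mm9 chr10:116719175-116719234) and has this sequence, shown because the coding parts of the 2 genes are near copies.
Lyz2 probe: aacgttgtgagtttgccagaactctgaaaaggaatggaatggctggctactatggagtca
It had a signal of 68.4 on the p38α+/+ array and 28.3 on the other. Its log2 levels were −1.07 and −2.02, a difference of −0.96 ± 0.21, a little short of 2-fold. Both lysozyme probes were thus higher on the p38α+/+ array by more than the error of their spots. How much *Lyz1* RNA the *Lyz2* probe binds was not tested, so the 2 differences may not be independent.

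*Mpeg1* went the other way. It encodes perforin-2, a pore-forming protein of macrophages that attacks engulfed bacteria. Its probe from base 3947 (mm9 chr19:12539387-12539446) had a signal of 69.2 on the p38α+/+ array and 88.3 on the other. The log2 levels were −1.05 and −0.38, a difference of 0.67 ± 0.21 or 1.59-fold higher. The second *Mpeg1* probe, from base 2257 (mm9 chr19:12537697-12537756), was measured on neither array, at −6.67 and −6.77, so the gene was read by 1 of its 2 probes.

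Among the receptors for growth factors and chemokines, *Csf1r* gave 3 probes that did not move together, *Cx3cr1* was measured on the p38α+/+ array only, and *Ccr2* on neither. *Csf1r* and *Cd14* lie on chromosome 18. *Csf1r* encodes the receptor tyrosine kinase for CSF1 and IL-34. Its brightest probe, from base 1841 of the transcript, had levels of 4.85 and 5.07, at percentiles 97.2 and 97.7 of its array, a difference of 0.21 ± 0.20 that is about the size of its error. The probe from base 3806 had levels of −1.40 and −0.64, a difference of 0.76 ± 0.21, 1.69-fold higher on the array labelled p38αΔ/Δ. The third, from base 2871, which crosses an intron in the genome, had a signal of 25.3 on the p38α+/+ array and 2.08 on the other, where it was not well above background, a level lower by at least 4.66-fold. One *Csf1r* probe was therefore higher, one lower and one within about its error, so the probes do not give the gene a common direction. With the normexp background correction the lower probe, from base 2871, differed by −0.28. The added 50 exceeds both of its signals, so that setting cannot decide whether it passed 2-fold.

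*Cx3cr1* encodes the receptor for the membrane-bound chemokine fractalkine and marks patrolling monocytes and many tissue macrophages. Its probe from base 3683 (mm9 chr9:119957811-119957870) had a signal of 22.7 on the p38α+/+ array and 5.71 on the other, at levels of −2.66 and −4.33. It was 3.19-fold lower, a difference of −1.67 ± 0.38. The level of −4.33 was not well above background but lay over the lowest measured level, so this fold is not a bound. The probe from base 3688 (mm9 chr9:119957806-119957865) had signals of 29.7 and 1.70, at levels of −2.27 and −6.08, and was at least 5.46-fold lower. These probes are shifted by 5 bases and share 55 of their 60, so they read the same stretch of RNA and count as 1 observation. The third probe, from base 2476 (mm9 chr9:119959018-119959077), lay at −4.48 and −5.42 and was measured on neither array. The mean signal of the first pair of probes was under −3, where repeated spots had an SD of 0.36. With the normexp background correction their differences were −0.10 and −0.29. The added 50 exceeds each of their signals, so that setting cannot decide whether they passed 2-fold.

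*Ccr2* encodes the receptor for CCL2 that lets classical monocytes leave the bone marrow. Its only probe (base 2657, mm9 chr9:124022948-124023007) had signals of 1.31 and 0.976 and could not be measured on either array, so it has no fold.

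**Figure D2:**
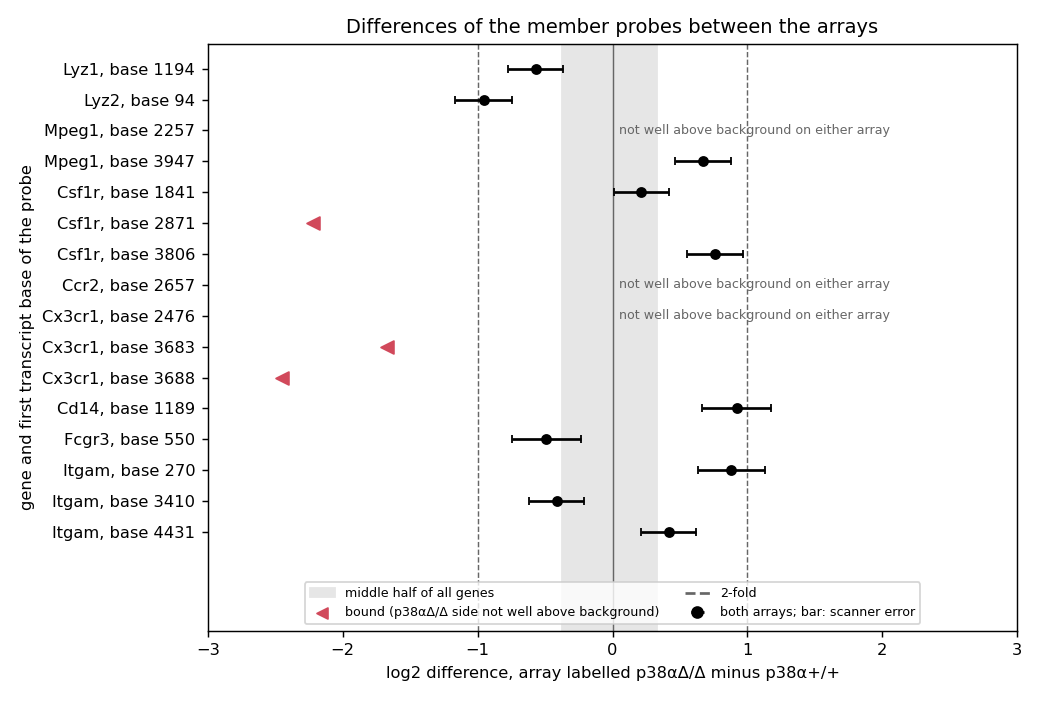
Log2 difference of each member probe, array labelled p38αΔ/Δ minus p38α+/+ (x axis), by gene and transcript base (y axis). Points are probes measured on both arrays with the scanner software's error as bars, and triangles are probes measured on the p38α+/+ array only. Dashed lines mark 2-fold and the grey band runs from −0.38 to 0.33, the quartiles of all genes. The triangles at −1.67, −2.22 and −2.45 are the probes past 2-fold, and those at −2.22 and −2.45 are bounds.

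The recognition receptors were dim or divided between probes. *Cd14* encodes the co-receptor that hands bacterial lipopolysaccharide to TLR4. Its probe from base 1189 had signals of 14.1 and 21.5 and levels of −3.34 and −2.42, a difference of 0.92 ± 0.26 or 1.89-fold higher on the array labelled p38αΔ/Δ. *Fcgr3* encodes the low-affinity IgG receptor known as CD16, part of the CD16/32 stain that marks granulocyte-monocyte progenitors. Its probe from base 550 (mm9 chr1:172984129-172984188) had signals of 21.6 and 12.4 and levels of −2.73 and −3.22, a difference of −0.49 ± 0.25, 1.41-fold lower. With the normexp background correction, whose added 50 exceeds both signals, the *Fcgr3* difference was 0.04. The other scaling and background alternatives kept it lower, down to −0.60 with the loess. Its direction therefore depended on the background correction.

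*Itgam* encodes the αM chain of the integrin Mac-1 (CD11b), which takes up complement-coated particles and is the usual surface marker of myeloid cells. Its 3 probes lie on chromosome 7 of mm9 and differ in kind, so they are printed here 5′ to 3′. Capitals mark a run of alternating C and A of 20 bases in the probe from base 4431, of which the first 30 bases are given.
Itgam probe from base 270, chr7:135212140-135212199: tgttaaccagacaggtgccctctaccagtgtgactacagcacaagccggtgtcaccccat
Itgam probe from base 3410, chr7:135260275-135260334: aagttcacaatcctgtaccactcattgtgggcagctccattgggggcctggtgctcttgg
Itgam probe from base 4431, chr7:135261755-135261814: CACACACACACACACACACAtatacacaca
The probe from base 270 had levels of −3.18 and −2.30, a difference of 0.88 ± 0.25, 1.84-fold higher on the array labelled p38αΔ/Δ. The probe from base 3410 had levels of −0.61 and −1.03, a difference of −0.42 ± 0.21, 1.33-fold lower. The probe from base 4431 had signals of 26042 and 27916, at percentile 99.6 of each array, and levels of 7.50 and 7.92, a difference of 0.42 ± 0.20 or 1.34-fold higher. The *Itgam* probes thus differed in sign, and the brightest of them was among the brightest of all probes although the sort removed cells that stain for its product.

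Other probes with such a run were bright as well, whichever gene they were designed for. A run of at least 16 letters of alternating C and A, on either strand, was found in 105 of the 55662 probes used. All 105 were well above background on both arrays, against 64.3% of all probes, and 92.4% lay above the 99th percentile of the p38α+/+ array. The 34 with the run in the orientation of the *Itgam* probe had median levels of 7.36 and 7.66 and a median difference of 0.30, close to the 7.50, 7.92 and 0.42 of *Itgam*. The median level of all probes was −2.55 and −2.56. How much of the signal of this probe came from *Itgam* RNA was not tested. Without it, the brightest *Itgam* probe is the one from base 3410, and *Itgam* counts as lower rather than higher.

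**Figure D3:**
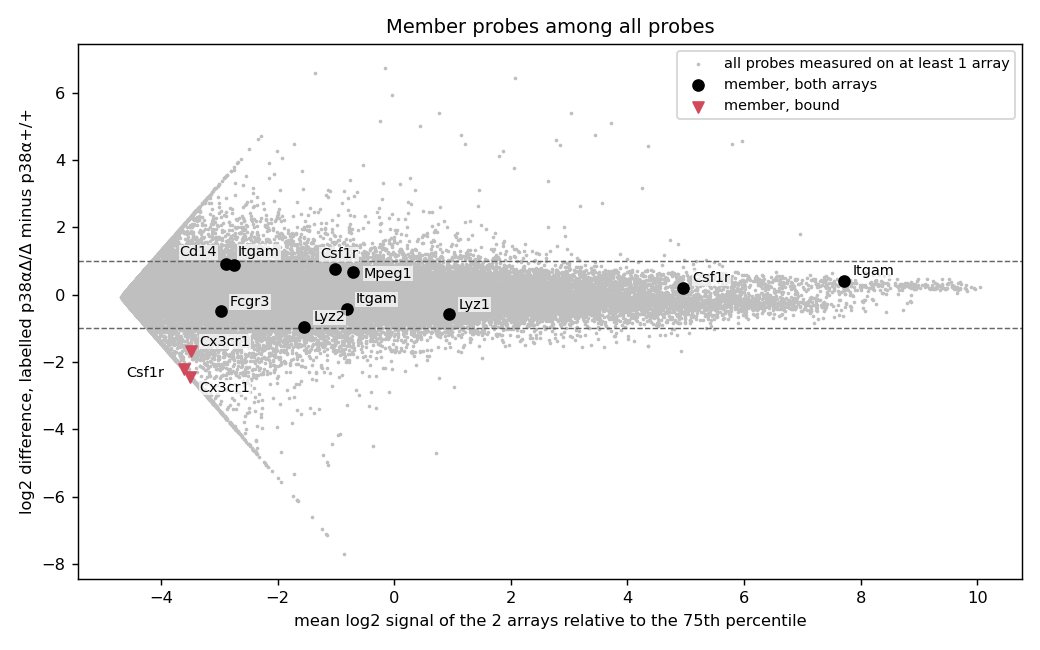
Mean log2 signal of the 2 arrays relative to the 75th percentile (x axis) against the log2 difference, array labelled p38αΔ/Δ minus p38α+/+ (y axis). Grey points are all probes measured on at least 1 array and black circles are member probes measured on both. Red triangles are member probes measured on the p38α+/+ array only, and dashed lines mark 2-fold. The members lie across the range of brightness, the 3 triangles at its dim end and the *Itgam* probe with the C and A run at its bright end.

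Taken as genes, each at its brightest probe, 8 of the 9 members were measured, 4 lower and 4 higher on the array labelled p38αΔ/Δ. The median difference was −0.14, against −0.03 over all genes. Without the *Itgam* probe with the C and A run, and likewise with the probes of each gene averaged, 5 were lower and 3 higher with a median of −0.45. The normexp background correction gave 3 lower and 5 higher with a median of 0.053, against 0.051 over all genes under the same correction. *Cx3cr1* alone passed 2-fold, downward, where 6.62% of all genes passed it downward and 4.11% upward. With so few genes these counts are a description. Lower were *Lyz1*, *Lyz2*, *Fcgr3* and *Cx3cr1* and higher were *Mpeg1*, *Csf1r*, *Cd14* and *Itgam*. The direction turned with the probe for *Csf1r* and *Itgam* and with the background correction for *Fcgr3*.

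**Figure D4:**
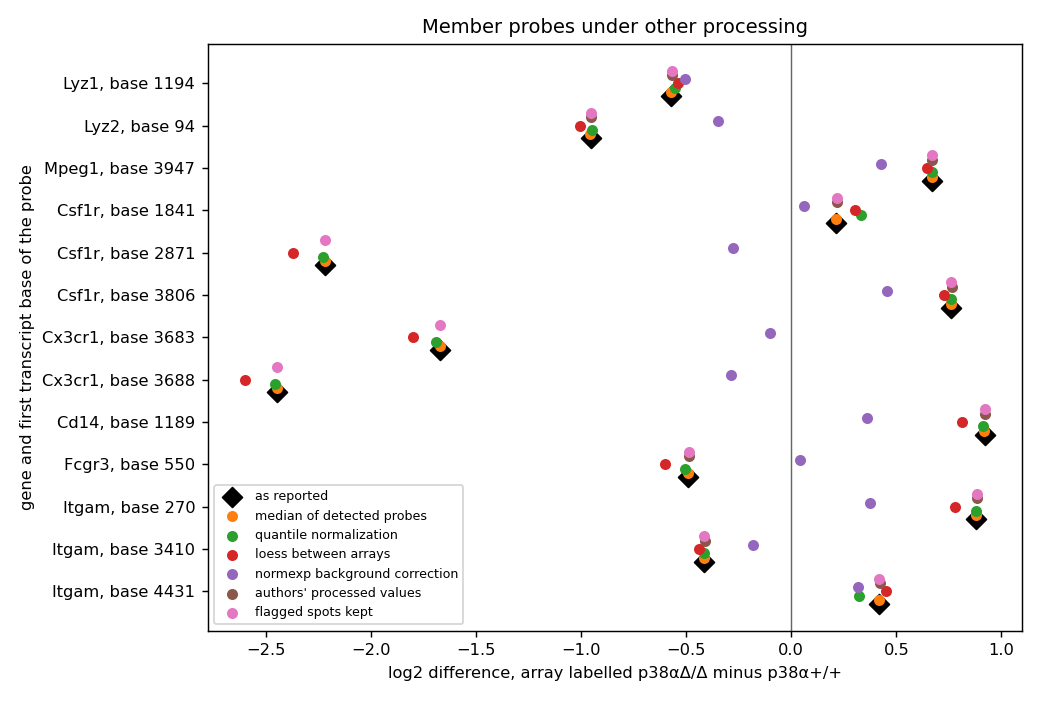
Log2 difference, array labelled p38αΔ/Δ minus p38α+/+ (x axis), of the 13 member probes measured on at least 1 array (y axis), as reported (diamonds) and under 6 other ways of processing (coloured points; the authors' processed values list 10 of these probes). Normexp background correction moved most probes toward 0, with *Lyz2* at −0.35, the *Cx3cr1* probes at −0.10 and −0.29 and *Fcgr3* at 0.04, while the other settings mostly lay closer to the diamonds.

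Of 15 genes of ligands and partner chains of these receptors 13 were measured, 9 lower and 4 higher on the array labelled p38αΔ/Δ, where 52.4% of all genes were lower. Of these 13, 2 were lower by 2-fold or more, against 6.62% of all genes. The median difference of the 13 was −0.13 against −0.03 over all genes. With the normexp background correction 7 were lower, 6 higher and 0 past 2-fold. Their median was then −0.00, against 0.051 over all genes under the same correction. Of the CSF1 receptor's ligands, *Csf1* had levels of −0.55 and −1.78, 2.33-fold lower, and *Il34* of −3.42 and −4.14, 1.65-fold lower. Both *Csf1r* ligands were therefore lower on the array labelled p38αΔ/Δ, while the *Csf1r* probes gave no common direction. *Csf1* was measured on both arrays by 1 of its 3 probes, and *Il34* was dim on both. Of the chemokines, *Ccl2*, the ligand of CCR2, had levels of −0.70 and −0.22 (1.40-fold higher), *Ccl7* and *Ccl12* were measured on neither array, and *Cx3cl1*, which encodes fractalkine, had levels of 0.39 and 0.04 (1.28-fold lower).

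One chain of the lipopolysaccharide receptor passed 2-fold. *Ly96*, which encodes MD-2, the chain of TLR4 that binds lipopolysaccharide, had levels of 0.54 and −0.72, 2.39-fold lower on the array labelled p38αΔ/Δ. *Tlr4* itself had levels of −0.38 and −0.46, a difference of −0.08, and *Lbp*, the serum protein that delivers lipopolysaccharide to CD14, of −1.32 and −2.03, a difference of −0.71. *Cd14* was thus the only one of these 4 genes that was higher. *Itgb2*, the β chain that pairs with the product of *Itgam*, had levels of 3.52 and 3.11, a difference of −0.42.

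The signalling chains and relatives of *Fcgr3* that were measured on both arrays differed by less than 2-fold. *Fcer1g*, the γ chain that CD16 needs to reach the surface, had levels of 0.54 and 0.42, a difference of −0.13, and *Tyrobp*, an adaptor of the same kind, of −0.25 and 0.43, a difference of 0.68. Of the other IgG receptors, *Fcgr1* differed by −0.03 and *Fcgr4* by 0.24, and *Fcgr2b*, the inhibitory receptor, was measured on the array labelled p38αΔ/Δ only, at least 1.09-fold higher. The receptor genes of this family sat between −3.43 and −2.44 where measured on both arrays, in the dim range where spots of one probe spread more.

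The transcription factors of the lineage were divided. Of 13 factors 12 were measured, 5 lower and 7 higher, 1 each way by 2-fold or more, with a median of 0.01. Over all genes 52.4% were lower, and 6.62% passed 2-fold downward and 4.11% upward. None (0) of the 12 factors passed 2-fold with the normexp correction. *Spi1*, which encodes PU.1, had levels of −0.35 and −0.89, 1.45-fold lower on the array labelled p38αΔ/Δ, and *Cebpa* (−0.58) and *Cebpb* (−0.92), which encode C/EBP factors, were lower too. *Nr1h3*, the oxysterol receptor LXRα, was 2.15-fold lower. In contrast *Irf8*, the factor that commits progenitors to monocytes, had levels of −4.11 and −2.67 and was 2.70-fold higher, and *Klf4* (0.51) and *Spic* (0.46) were higher.

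Other genes of monocytes were mostly higher on the array labelled p38αΔ/Δ. Of 18 listed, 15 were measured, 3 lower and 12 higher, with a median of 0.54, where 52.4% of all genes were lower. Of the 15, 4 were higher by 2-fold or more, against 4.11% of all genes. The 12 measured on both arrays gave 9 higher, 2 of them by 2-fold or more, with a median of 0.42. With the normexp background correction 13 of the 15 were higher, 1 of them by 2-fold or more. Among genes measured on both arrays the largest rises were those of *Chil3*, a chitinase-like protein of monocytes and neutrophils, with levels of −2.47 and 1.39 (14.6-fold), *Ace* (2.66-fold) and *Fn1*, fibronectin (1.86-fold). The falls were *S100a4* (−0.83), *Spn* (−0.23) and *Vcan* (−0.04). Measured on the array labelled p38αΔ/Δ only were *F13a1*, the A chain of coagulation factor XIII (at least 5.66-fold higher), *Ifitm6* (at least 3.56-fold) and *Ly86* (at least 1.41-fold). *Clec12a* and *Clec4a3* joined *Ccr2* in not being well above background on either array, and *Ly6c2*, the other defining gene of classical monocytes, has no named probe.

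Of 23 genes of tissue macrophages 15 were measured, 6 lower and 9 higher, with a median of 0.11, where 52.4% of all genes were lower. *Adgre1*, which encodes F4/80, had levels of −4.13 and −3.69, near the lowest signals that were measured. Among those measured on both arrays the largest rises were *Vcam1* (0.90), *C1qa* (0.84) and *C1qb* (0.72), and the largest falls *Trem2* (−1.13), *Apoe* (−0.77) and *Aif1* (−0.39). *Cd5l* and *Vsig4* were measured on the p38α+/+ array only, at least 4.49-fold and at least 1.76-fold lower on the other. *Cd163*, *Mrc1*, *C1qc*, *Timd4*, *Msr1*, *Mertk*, *Gpnmb* and *Ms4a7* were measured on neither array.

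Phagocyte oxidase and lysosome genes were measured throughout, 12 of 12, with 7 lower and 5 higher and a median of −0.14. Over all genes 52.4% were lower. *Ctss*, a lysosomal protease of antigen-presenting cells, had levels of 0.01 and 1.45 (2.70-fold higher) and *Cybb*, the catalytic chain of the oxidase, of −3.38 and −1.98 (2.64-fold higher), followed by *Ncf4* (0.91). *Cyba*, the chain that pairs with the product of *Cybb*, differed by −0.61, beside *Grn* (−0.75) and *Lgmn* (−0.62).

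Markers of some other blood cells that a sort of bone marrow can hold also differed between the arrays. Beside the counts below, 52.4% of all genes were lower, and 4.11% passed 2-fold upward and 6.62% downward. Of 16 neutrophil genes 14 were measured, 11 higher and 3 lower on the array labelled p38αΔ/Δ, with a median of 1.32. Of these, 10 were higher and 2 lower by 2-fold or more. The 11 measured on both arrays gave 9 higher, 8 of them by 2-fold or more, with a median of 1.19. The summed signal of the 14, in linear units of the 75th percentile, was 9.49 and 27.8. Without *S100a9*, the gene that added most to the difference, it was 5.74 and 12.7. The largest rises on both arrays were those of the granule gene *Ltf* (4.69-fold), *S100a9* (4.04-fold) and *Ngp* (3.99-fold), and *Retnlg* (at least 12.8-fold) and *Mmp8* (at least 2.74-fold) were measured on the array labelled p38αΔ/Δ only. The falls measured on both arrays were those of *Elane*, with levels of −0.15 and −1.57 (2.67-fold lower), and *Prtn3* (−0.48). The normexp correction left 4 neutrophil genes higher by 2-fold or more. *Lyz2*, which neutrophils also express, was lower on the array on which most neutrophil genes were higher. *Ly6g*, which encodes the neutrophil part of the Gr-1 stain, was measured for p38α+/+ only and was at least 2.69-fold lower on the other, and *Mmp9* and *Cxcr2* were measured on neither array. Of 11 B cell genes 10 were measured and 10 were higher (median 0.62), with *Igll1* unmeasured and a summed signal of 14.7 and 34.7, or 13.6 and 19.5 without *Jchain*. Of these 10, *Ms4a1*, *Ebf1* and *Vpreb3* were measured on the array labelled p38αΔ/Δ only. The 7 B cell genes measured on both arrays had a median of 0.54. Of 12 T and NK cell genes 8 were measured and 7 were higher (median 0.68, summed signal 18.4 and 24.9, or 6.81 and 10.4 without *Nkg7*), with *Cd3d*, *Cd3g* and *Ncr1* unmeasured. Dendritic cell genes, whose cells are close relatives of monocytes, gave 7 measured of 10 and 6 higher (median 0.23, summed signal 28.3 and 31.7, or 3.35 and 2.78 without *Siglech*), with *Itgax*, *Cd209a* and *Batf3* unmeasured. Among them *Xcr1* was measured on the array labelled p38αΔ/Δ only.

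The medians were 0.42 for 7 measured mast cell, basophil and eosinophil genes (summed signal 52.4 and 50.3, or 1.74 and 2.85 without *Kit*), 0.46 for 9 erythroid genes (84.2 and 75.3, or 14.4 and 19.2 without *Car2*) and 0.04 for 10 megakaryocyte genes (132 and 124). In the first of these lists *Epx* and *Ear1* were measured on the array labelled p38αΔ/Δ only. The 5 genes of that list measured on both arrays had a median of 0.11. Genes of the stem cell and of the sort gate were lower in 13 of 16, where 52.4% of all genes were lower. Their median was −0.43, with *Slamf1* at −0.82. Of the genes in this list whose products the gate selects against, *Cd34* and *Itga2b* were lower and *Cd48* and *Flt3* higher. *Cd48* was 2.59-fold higher on the array labelled p38αΔ/Δ at its brightest probe, while its other probe differed by 0.19 (log2). The part of other cell types in the values of the 9 members was not tested.

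**Figure D5:**
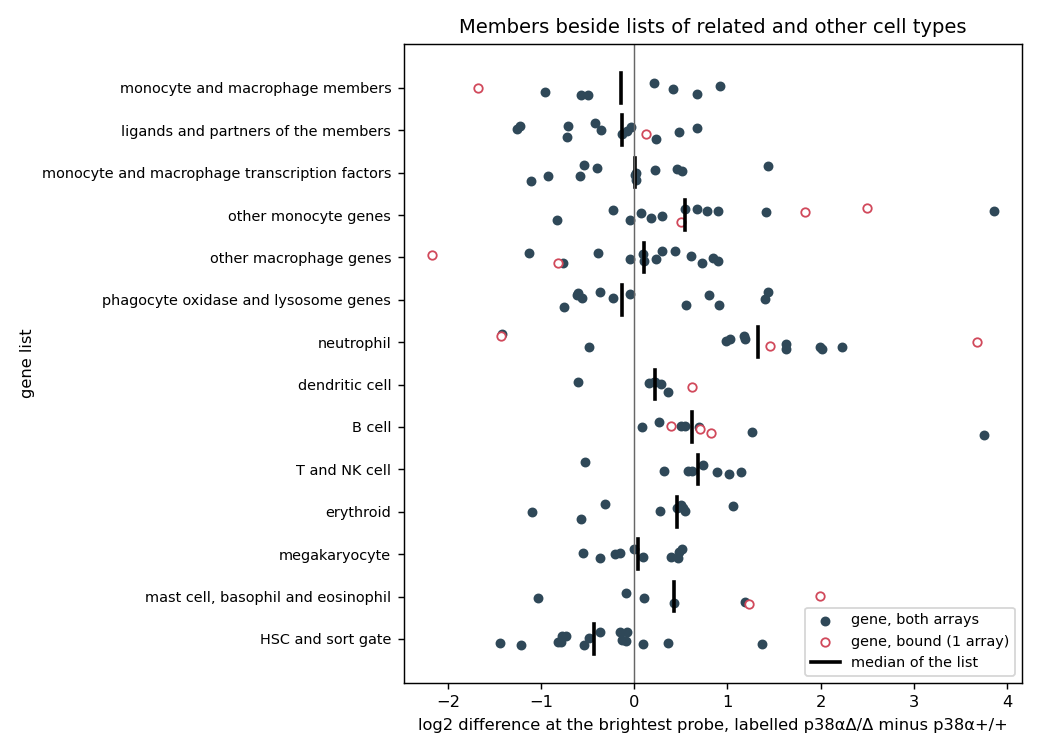
Log2 difference at the brightest probe, array labelled p38αΔ/Δ minus p38α+/+ (x axis), of the genes of the 14 lists (y axis). Filled points were measured on both arrays, open points on 1 array only, and bars are list medians. The members and their ligands and partners are centred at −0.14 and −0.13, between the neutrophil genes at 1.32 and the stem cell and sort gate genes at −0.43.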

How the data were processed

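LT-HSC RNA of 2-year-old p38α+/+ and p38αΔ/Δ mice was hybridized to 1 single-colour Agilent array per genotype. The authors deposited each array's background-subtracted scanner intensity (Agilent Feature Extraction 11.5.1.1, per the submitters' processing notes), detrended but not normalized between arrays, and, for 35795 probes, normalized log2 values. The authors' log2 values lay close to the log2 signal minus 1 constant per array, 7.16 and 6.84. The largest departures from this were 0.073 and 0.091. The values have a median of −0.79 in each column.

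Control spots and spots flagged as outliers or non-uniform were left out, which removed 19 of 55681 probes, and 0 spots were saturated. Repeated spots were averaged as log2 signal, and the 75th percentile of the array (7.16 and 6.85) was subtracted. Probe positions are those of build mm9 in the files, which do not say whether a probe lies in coding sequence or a UTR. Names came from RefSeq (GRCm38.p6) and were found for 31778 probes (57.1%). The brightest probe stood for a gene, and 15645 of 17191 genes were measured on both arrays. Dim sides were floored as described.

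The members and the 14 gene lists were chosen with earlier results of these data known. Named by rule were all member probes, *Mapk14*, all ligands and partners and, from the other lists, genes among the 3 largest rises and falls measured on both arrays and bounds. *Hlf*, *Kit*, *Cd34*, *Itga2b*, *Spi1*, *Adgre1*, the genes left out of summed signals and the genes named as unmeasured were chosen after their values were seen. Alternatives were centring on the median of detected probes, quantile normalization, a loess between arrays (span 0.3), normexp (offset 50), the authors' values, kept flagged spots, averaging the probes of each gene, a filter on genes measured on both arrays, no filter, and no floor. The number of arrays limits the precision. Calculations were tested on simulated data. Software was limma 3.58.1 in R 4.3.3 and, in Python 3.11.15, biopython 1.88, matplotlib 3.10.9, pandas 2.3.3, numpy 2.4.6 and statsmodels 0.14.6.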

Additional observations from a re-analysis of the deposited data

How the results depend on the processing

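The count of member genes at least 2-fold lower, 1 as reported, was 2 with a loess between the arrays, where *Lyz2* passed 2-fold, and 0 with normexp, the authors' values or only genes measured on both arrays. The count at least 2-fold higher was 0 under every alternative run. The median difference of the members, −0.14 as reported, was 0.053 with normexp, 0.22 in the authors' values, 0.21 over genes measured on both arrays and −0.45 when the probes of each gene were averaged. Leaving out the *Itgam* probe with the C and A run, an alternative chosen after seeing the data, also gave −0.45. The median's sign is therefore not settled. Over all genes the median was 0.051 with normexp and from −0.07 to −0.01 under the other alternatives. Among the 13 member probes, the direction changed under the scaling and background alternatives only for *Fcgr3*, at 0.04 with normexp. Under the same alternatives the *Mapk14* probes ran from −0.11 to 0.01 and from −0.09 to 0.03. The median of the ligands and partners ran from −0.24 to −0.00, of the other monocyte genes from 0.30 to 0.67, of the other macrophage genes from −0.07 to 0.23 and of the neutrophil genes from 0.78 to 1.35. Low signal over background limits *Ccr2*, *Cx3cr1*, *Cd14* and *Fcgr3* most. No paired analysis was possible because each genotype has 1 array, and for the same reason no replicate could be left out.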
